A study of Mus musculus with 6 samples.

Results

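The matrix metalloproteinases (MMPs) and their tissue inhibitors (TIMPs) were followed in MC3T3-E1 cells, a preosteoblast line from mouse skull bone, of strain C57BL/6 and at passage 4. Expression was measured by RNA-seq in 3 control cultures and in 3 cultures given 100 μmol/L C3G (cyanidin-3-O-glucoside, an anthocyanin pigment of plants), a dose that the labels write as um/l. Both groups were synchronized without serum and then kept for 24 h in complete medium, so the groups share the serum starvation and differ by C3G. All libraries come from 1 cell line, and nothing states that the cultures were independent beyond being separate samples, so p-values measure the spread between these samples, which may be technical. Members were taken by gene symbol from a list of 9 (*Mmp2*, *Mmp3*, *Mmp13*, *Mmp14*, *Mmp19*, *Mmp23*, *Timp1*, *Timp2*, *Timp3*), of which 7 were among the 11234 genes analysed here. *Mmp3* and *Mmp23* were not among them and are not analysed here. Every gene in the table has a mean of at least 0.50 FPKM in at least 1 group (FPKM is a fragment count scaled to gene length and to sequencing depth), so a gene low in both groups would not appear.

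MMPs are zinc enzymes that cut collagens and other proteins of the extracellular matrix. They are made as inactive proenzymes, and TIMPs shut off the active enzymes by binding in the active site. In bone, osteoblast-lineage cells secrete collagenase and gelatinase and carry the membrane-bound MMP14, which activates pro-MMP2 on the cell surface in a complex that also needs TIMP2. *Mmp13* encodes the main interstitial collagenase of rodents and is known in osteoblasts as a target of RUNX2 and AP-1.

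The letters that define each family were read from the coding sequences of the GENCODE M21 transcripts, to show what the measured transcripts encode. In the 4 MMPs, the stretch of 33 bases below encodes the zinc-binding site, and capitals mark the codons of the 3 histidines that hold the catalytic zinc.
Mmp2: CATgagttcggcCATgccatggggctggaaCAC
Mmp13: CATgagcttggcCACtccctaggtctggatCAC
Mmp14: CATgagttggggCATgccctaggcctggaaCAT
Mmp19: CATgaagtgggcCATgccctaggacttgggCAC
These stretches shared 24 to 27 of 33 bases, with *Mmp2* and *Mmp14* the closest pair at 27. In the 3 TIMPs, the stretch of 27 bases below encodes the start of the mature inhibitor, and capitals mark the codons of the cysteines at its tip, the part that sits on the zinc of the enzyme.
Timp1: TGTagcTGTgccccaccccacccacag
Timp2: TGCagcTGCtccccggtgcacccgcaa
Timp3: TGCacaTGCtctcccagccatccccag
The TIMP stretches shared 16 to 18 of 27 bases.

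The 6 libraries list the same genes, with a median of 5.80 to 7.40 FPKM. Control replicate 1 stood apart: its correlation with the other libraries across genes was 0.886 to 0.939, and its departures from the group mean rose with transcript GC content (Spearman's rho 0.748 over genes, which are not independent). Those of C3G replicate 1 did so too (rho 0.631), and those of the other 4 libraries fell with GC content (rho -0.692 to -0.469). Departures within a group cancel out, so this fall follows in part from the rise in replicate 1. Of 13 osteoblast marker genes 12 were listed, among them *Runx2*, *Col1a1* and *Sparc*, and *Ibsp* was not. Their summed FPKM was 2812 to 7904 in control and 2865 to 3803 in C3G libraries. *Sp7*, also among those listed, had a mean of only 0.54 FPKM over the 6 libraries, against 7.20 FPKM in the median gene. Of 9 osteoclast markers 2 were listed, *Ctsk* and *Mmp9*, with sums of 18.7 to 35.4 in control and 32.8 to 35.4 in C3G libraries. None of the 6 endothelial and none of the 6 adipocyte markers was listed, and *Ptprc*, *Csf1r*, *Acp5* and *Calcr*, which define macrophages and osteoclasts, were not listed either. The summed FPKM of the 3 listed macrophage markers was 33.8 to 43.1 in control and 48.4 to 57.2 in C3G libraries, with no overlap. Most of it was *Lyz2*, which met the call rule (log2 change 0.44, adjusted p = 0.992 with limma), and its part in the results was not tested. No marker of the other cell types was called. That of the 4 listed chondrocyte markers (*Sox9*, *Col2a1*, *Matn1*, *Hapln1*) was 95.04 to 213 in control and 90.7 to 114 in C3G libraries.

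The members fell into 2 ranges of expression. *Timp2*, which encodes the inhibitor that also takes part in MMP2 activation, was the highest, with a mean of 421 FPKM over the 6 libraries and rank 53 of 11234 genes. *Mmp2*, the gelatinase gene, followed at 297 FPKM (rank 85). *Timp3*, whose product is bound to the matrix, had 117 FPKM, *Timp1*, the inducible soluble inhibitor, 101 FPKM, and *Mmp14* 73.5 FPKM. *Mmp13* (5.64 FPKM) and *Mmp19* (5.29 FPKM), a secreted enzyme outside the classical collagenase and gelatinase groups, lay below the median gene, which had 7.20 FPKM. In every library the order was *Timp2*, *Mmp2*, and then the remaining 5 members. *Timp3*, *Timp1* and *Mmp14* were not in the same order in all libraries, and neither were *Mmp13* and *Mmp19*. The order of these neighbours was thus not fixed, though *Timp1* lay above *Mmp14* in every control library. FPKM is scaled for gene length, so levels can be compared between genes, but RNA levels do not give the amount or activity of the proteins.

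**Figure D1:**
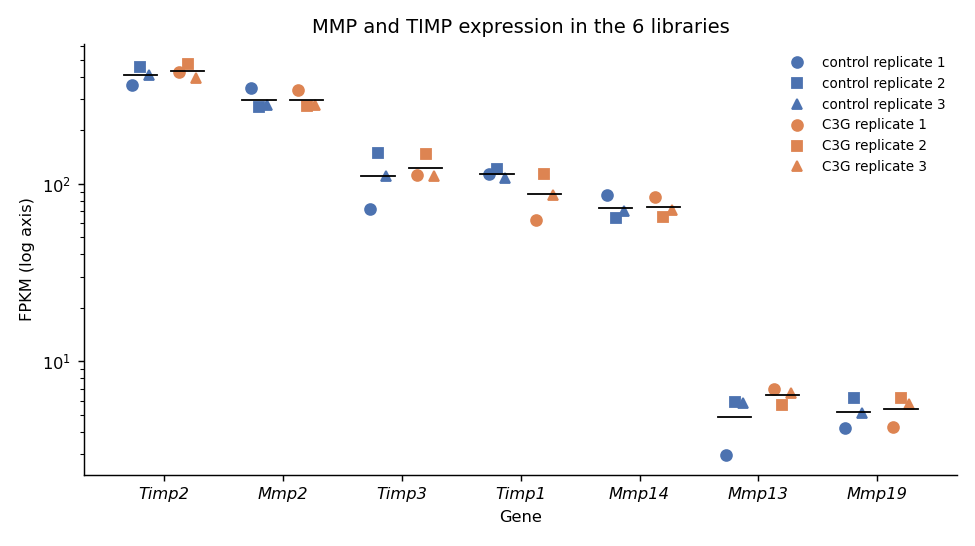
FPKM of the 7 listed members (log axis) in the 3 control and 3 C3G libraries, with symbols for the replicate number and lines at the group means. *Timp2* and *Mmp2* stand highest and *Mmp13* and *Mmp19* lowest, and in each gene the ranges of the groups overlap.

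The comparison of C3G with control asks whether the pigment changed the expression of these genes. Differences were tested with limma on log2(FPKM + 1) over all 11234 genes, and a call needed a two-sided p under 0.05 before adjustment and a fold of at least 1.2. The log2 change is the difference of group means, C3G minus control, on this scale, which understates the change of low genes. With this rule 0 of the 7 members were called, beside 0.65% of all genes, and 0 members had an unadjusted p under 0.05. The control and C3G values did not overlap in 0 of the 7 members, beside 4.02% of all genes. After Benjamini-Hochberg adjustment with limma 0 genes passed of all 11234, where 74 had an unadjusted p under 0.05. The members' log2 changes had a median of 0.051, beside 0.057 over all genes. In bulk RNA, fewer cells of a kind and less RNA per cell cannot be told apart.

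*Mmp2* (ENSMUSG00000031740.8; chromosome 8 of GRCm38, 92827291 to 92853420, plus strand) had 346, 270.4 and 279 FPKM in the controls numbered 1, 2 and 3 and 337, 273 and 277 FPKM in the C3G libraries so numbered. Replicate 1 was the highest of both groups, and within each number the treated library was almost level with its control. The C3G to control ratios were 0.975, 1.01 and 0.993 for numbers 1, 2 and 3. The group means were 298 ± 41.5 FPKM (SD, n = 3) in control and 296 ± 36.1 FPKM (SD, n = 3) in C3G cells. The log2 change was -0.011 ± 0.19 (SE; p = 0.958 by limma, adjusted p = 0.997, and 0.8 by exact permutation). The 95% interval of the fold ran from 0.724 to 1.36. A difference within these bounds was not resolved.

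*Mmp14* (ENSMUSG00000000957.11; chromosome 14, 54431612 to 54445364, plus strand), the membrane-bound activator of pro-MMP2, had 86.2, 63.9 and 70.4 FPKM in the controls numbered 1, 2 and 3. The C3G replicates had 84.5, 64.8 and 71.3 FPKM in the same order. As in *Mmp2*, replicate 1 was the highest of each group, and replicate 2 was the lowest. The within-number ratios were 0.980, 1.01 and 1.01. The means were 73.5 ± 11.5 FPKM (SD, n = 3) in control and 73.5 ± 10.0 FPKM (SD, n = 3) in C3G cells, a log2 change of 0.0032 ± 0.19 (SE; p = 0.987 by limma and 1 by exact permutation). The 95% interval of the fold was 0.736 to 1.36.

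The collagenase gene *Mmp13* (ENSMUSG00000050578.10; chromosome 9, 7272514 to 7283331, plus strand) had 2.95, 5.88 and 5.78 FPKM in the controls numbered 1, 2 and 3. In C3G replicates 1, 2 and 3 it had 6.96, 5.69 and 6.60 FPKM. Control replicate 1 was the lowest library by a wide margin, while the other 5 lay close together and the groups overlapped. The means were 4.87 ± 1.66 FPKM (SD, n = 3) in control and 6.42 ± 0.654 FPKM (SD, n = 3) in C3G cells. The log2 change of 0.38 ± 0.25 (SE) did not pass (p = 0.178 by limma and 0.3 by exact permutation), and its interval in folds ran from 0.858 to 1.97. Without control replicate 1 it was 0.12, and with replicates 2 and 3 only in both groups it was 0.063, so most of the difference came from that library. *Mmp13* has the lowest GC content of the members (41.7%). In both libraries numbered 1 departures rose with GC content, and of these control replicate 1 had the lowest and C3G replicate 1 the highest *Mmp13* level. With each library corrected for GC content the log2 change was 0.18, also not called.

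The RefSeq promoter of *Mmp13* is printed because letters that its known regulators recognise occur in it. It covers the 250 bases before the annotated start (GRCm38.p6, chr9:7272264-7272513, plus strand), with matches to the AP-1 letters TGACTCA and the RUNX letters ACCACA in capitals.
Mmp13: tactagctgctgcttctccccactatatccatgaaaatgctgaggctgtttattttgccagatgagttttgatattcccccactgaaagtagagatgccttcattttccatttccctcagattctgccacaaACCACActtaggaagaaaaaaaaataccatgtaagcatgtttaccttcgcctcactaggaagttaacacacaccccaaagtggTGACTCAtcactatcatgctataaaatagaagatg
The RUNX letters begin at position -118 and the AP-1 letters at -35 from the start. Both strands were searched (reverse complements TGTGGT and TGAGTCA), and the matches do not overlap each other. The AP-1 letters occur in 4.46% and the RUNX letters in 14.05% of 32851 promoter windows of the same length. Of the other listed members with a RefSeq promoter, *Mmp14* held the RUNX letters and *Timp1*, *Timp2* and *Timp3* held neither. A match is a description of the letters and not a site in use. *Runx2*, named after its values were seen, had 5.46, 8.49 and 8.81 FPKM in the controls numbered 1, 2 and 3 and 7.14, 8.92 and 9.07 FPKM in the C3G replicates. As in *Mmp13*, control replicate 1 was the lowest, but C3G replicate 1 was the lowest C3G library for *Runx2* and the highest for *Mmp13*. The *Runx2* difference of 0.15 on the log2 scale was not called (p = 0.525 by limma and 0.5 by exact permutation). It turned to -0.048 without control replicate 1.

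*Mmp19* (ENSMUSG00000025355.7; chromosome 10, 128790910 to 128800824, plus strand) had 4.21, 6.23 and 5.11 FPKM in the controls numbered 1, 2 and 3 and 4.28, 6.19 and 5.75 FPKM in the C3G replicates. Replicate 1 was the lowest and replicate 2 the highest of each group, the reverse of *Mmp14*. The means were 5.18 ± 1.01 FPKM (SD, n = 3) in control and 5.40 ± 0.998 FPKM (SD, n = 3) in C3G cells. The log2 change was 0.051 ± 0.20 (SE; p = 0.808 by limma and 0.8 by exact permutation), with an interval of 0.741 to 1.45 in folds. Its sign was not fixed, since it turned to -0.034 under quantile normalization and to -0.014 under median centring. Exons of *Mmp19* overlap those of *Tmem198b* and *Gm47093* on the opposite strand. The libraries were made with a stranded kit, but whether the counting used strand is not given in the sources used here, so its level is uncertain.

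*Timp1* (ENSMUSG00000001131.11; chromosome X, 20870166 to 20874735, plus strand) and *Mmp13* had the log2 changes farthest from 0 among the members in this comparison. Which of them was larger depended on the setting, with -0.42 and 0.45 at a pseudocount of 0.1. Without control replicate 2 *Timp3* (0.45) lay farther from 0 than *Timp1* (-0.37). With replicates 2 and 3 only *Mmp19* (0.067) lay farther from 0 than *Mmp13* (0.063). *Timp1* had 114, 121 and 107 FPKM in the controls numbered 1, 2 and 3, and 62.4, 114 and 86.6 FPKM in the C3G libraries so numbered. C3G replicates 1 and 3 lay below every control library, while C3G replicate 2 lay inside the control range. Within each number the treated library was lower, with C3G to control ratios of 0.550, 0.944 and 0.808. In how many of all genes 3 of 3 pairs went the same way was not counted, here or below. The means were 114 ± 6.76 FPKM (SD, n = 3) in control and 87.7 ± 25.8 FPKM (SD, n = 3) in C3G cells. The log2 change, -0.41 ± 0.24 (SE), did not pass (p = 0.128 by limma, adjusted p = 0.992, and 0.3 by exact permutation). Its interval ran from 0.507 to 1.11 in folds. These values ignore the replicate numbers. With the number as a block limma's p for *Timp1* was 0.082, and with the GC correction and block it was 0.068. The log2 change passed without C3G replicate 2, at -0.62 (adjusted p = 0.9997 with limma), and in none of the other 14 alternatives. Without C3G replicate 1, the lowest library, it was -0.19, and with replicates 2 and 3 only it was -0.19 too. Over all 15 alternatives the log2 change was -0.62 to -0.19 and the limma p 0.0374 to 0.371.

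*Timp2* (ENSMUSG00000017466.9; chromosome 11, 118301069 to 118355740, minus strand) had 361, 456 and 412 FPKM in the controls numbered 1, 2 and 3 and 425, 476 and 396 FPKM in the C3G replicates. Replicate 2 was the highest of both groups. The means were 410.05 ± 47.6 FPKM (SD, n = 3) in control and 432 ± 40.4 FPKM (SD, n = 3) in C3G cells. The log2 change was 0.079 ± 0.19 (SE; p = 0.685 by limma and 0.5 by exact permutation), with an interval of 0.777 to 1.44 in folds.

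*Timp3* (ENSMUSG00000020044.13; chromosome 10, 86300372 to 86349506, plus strand) had 71.9, 149 and 111 FPKM in the controls numbered 1, 2 and 3. The C3G replicates had 112, 147 and 111 FPKM. Replicates 2 and 3 were almost level between the groups, with ratios of 0.985 and 1.00, and the pair numbered 1 had a ratio of 1.55. The means were 111 ± 38.8 FPKM (SD, n = 3) in control and 123 ± 20.9 FPKM (SD, n = 3) in C3G cells, a log2 change of 0.20 ± 0.29 (SE; p = 0.509 by limma and 0.8 by exact permutation). Its interval in folds, 0.713 to 1.86, was the widest of the 7 members on the log2 scale, and without control replicate 1 the log2 change was -0.074. Exons of *Syn3* overlap those of *Timp3* on the opposite strand, so its level carries the same doubt as that of *Mmp19*.

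**Figure D2:**
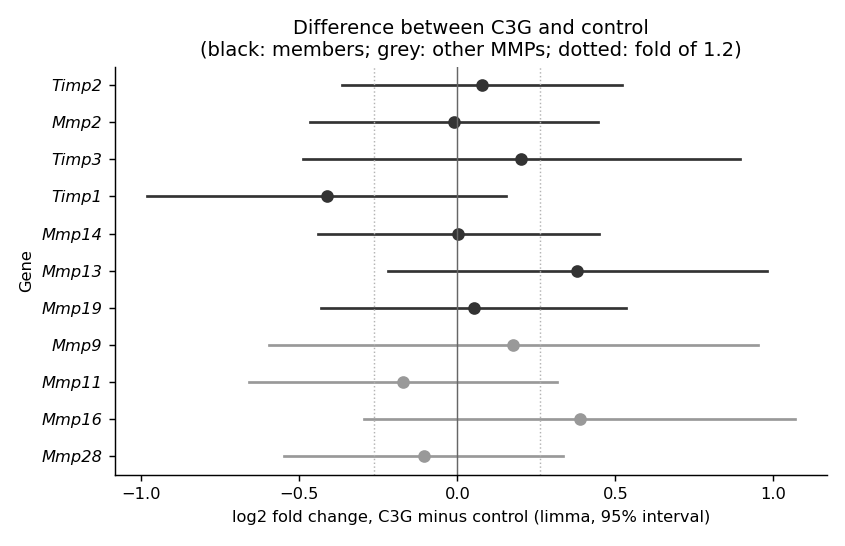
Log2 fold change of log2(FPKM + 1), C3G minus control, with limma's 95% interval for the 7 members (black) and 4 other MMPs (grey), and dotted lines at a fold of 1.2. Every interval crosses 0, with *Timp1* at -0.41 and *Mmp13* at 0.38 the farthest from it among the members.

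The spread within the groups followed the replicate number more than C3G in 5 of the 7 members. Of the sum of squares of log2(FPKM + 1) over the 6 libraries, the replicate number held 99.5% in *Mmp14*, 99.4% in *Mmp2*, 95.4% in *Mmp19*, 72.6% in *Timp3* and 69.6% in *Timp2*. The group held 0.00927%, 0.126%, 1.74%, 8.53% and 9.21% of it in the same genes. In *Timp1* the group held 40.0% and the replicate number 35.4%, and in *Mmp13* 32.4% and 20.9%. This was not particular to the family: the replicate number held more than the group in 87.0% of all genes, with medians of 66.6% and 9.05%. After the GC correction the replicate number held more than the group in all 7 members, with 44.6% against 33.5% in *Timp1* and 63.7% against 20.2% in *Mmp13*. The number has 3 values and the group 2, so that its share is also larger by construction.

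The libraries numbered 1 departed in opposite directions in different members. In *Mmp2* replicate 1 was 1.26 times the mean of replicates 2 and 3 among the controls and 1.23 times that mean among the C3G libraries, and in *Mmp14* 1.28 and 1.24 times. In *Mmp19* the same ratios were 0.742 and 0.717. In *Timp3* they were 0.553 and 0.867, and in *Timp2* 0.832 and 0.975. The GC contents of *Mmp2* and *Mmp14* (55.3% and 54.3%) lie above those of *Mmp19* (49.0%) and *Timp3* (46.8%), while *Timp2* (53.7%) was low in control replicate 1 but not in C3G replicate 1, which lay above C3G replicate 3. After the GC correction the ratios of *Mmp2* were 1.02 and 1.07, those of *Mmp14* 1.10 and 1.09, and those of *Mmp19* 0.916 and 0.721. Those of *Timp3* came nearer to 1, at 0.770 and 0.943, while those of *Timp2*, at 0.737 and 0.867, were farther from 1 than before. In *Timp1* the ratios went from 0.996 and 0.622 to 0.931 and 0.562. In *Mmp13* they went from 0.506 and 1.13 to 1.16 and 1.48, so that control replicate 1 turned from below to above its group. What besides GC content differed between the numbered pairs was not tested.

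**Figure D3:**
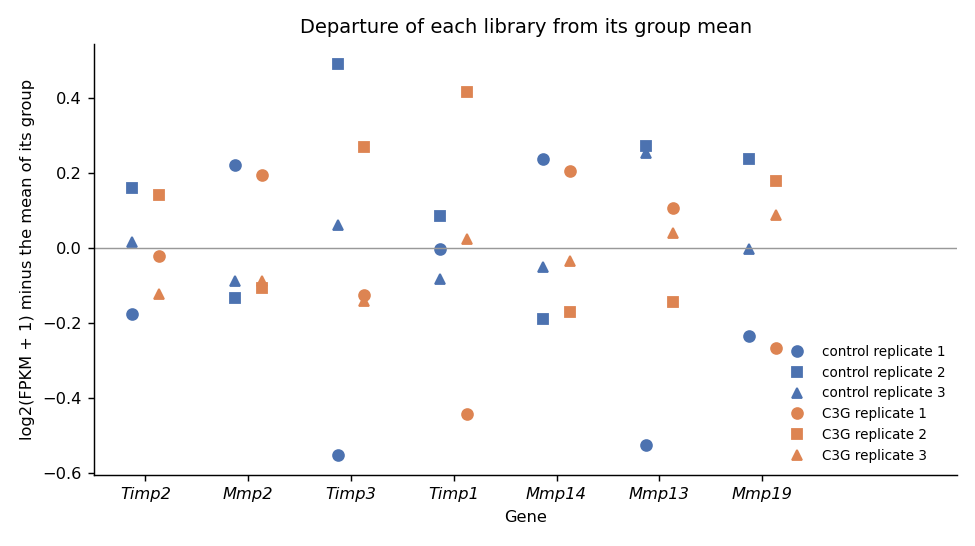
Log2(FPKM + 1) of each library minus the mean of its group, for the 7 members, with symbols for the replicate number and colours for the group. In *Mmp2*, *Mmp14* and *Mmp19* the control and C3G symbols of the same number lie side by side, whereas in *Mmp13*, *Timp1* and *Timp3* those of numbers 1 and 2 lie apart.

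Ratios within a library do not depend on the scaling of that library. The summed FPKM of the 3 TIMPs over that of the 4 MMPs was 1.24, 2.098 and 1.75 in the controls numbered 1, 2 and 3 and 1.38, 2.11 and 1.65 in their C3G partners. In every library the TIMP transcripts outnumbered those of the MMPs, least in replicate 1 and most in replicate 2 of each group. The group means were 1.70 ± 0.429 (SD, n = 3) in control and 1.71 ± 0.366 (SD, n = 3) in C3G cells, less apart than the spread within either. *Mmp2* made up 76.8% to 78.8% of the MMP sum and *Timp2* 62.8% to 70.9% of the TIMP sum, so the ratio is mainly that of these genes.

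For the proteins that meet on the cell surface, *Timp2* over *Mmp14* was 4.19, 7.15 and 5.86 in the controls numbered 1, 2 and 3 and 5.03, 7.35 and 5.56 in the C3G replicates. It followed the replicate number like the sums did. *Mmp2* over *Mmp14* was the steadiest ratio, at 4.01, 4.24 and 3.96 in control and 3.99, 4.22 and 3.88 in C3G libraries. Its means were 4.07 ± 0.145 (SD, n = 3) in control and 4.03 ± 0.172 (SD, n = 3) in C3G cells, whereas *Mmp2* itself varied 1.28-fold between the highest and the lowest library. Ratios were formed from the members and carry no test.

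**Figure D4:**
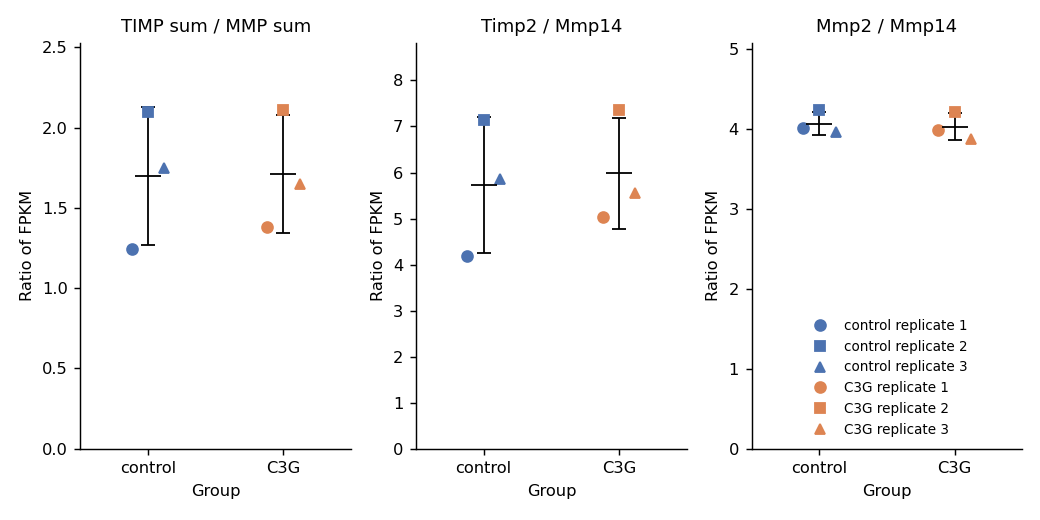
Ratios of FPKM within each library for control and C3G, as the sum of TIMPs over the sum of MMPs, *Timp2* over *Mmp14*, and *Mmp2* over *Mmp14* (points: libraries by replicate number; bars: mean ± SD, n = 3; axes start at 0). The first 2 ratios are lowest in replicate 1 and highest in replicate 2 of both groups, and the last stays between 3.88 and 4.24.

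Over the 6 libraries *Mmp2* and *Mmp14* varied together (Pearson's r 0.966 of log2(FPKM + 1)) and *Mmp19* varied against both (-0.943 with *Mmp2* and -0.970 with *Mmp14*). *Timp2* and *Timp3* varied together (0.956), and *Timp1* followed neither of them (0.115 and 0.114). These are descriptions over 6 libraries that share a replicate number in pairs, and so are not independent. The gene most like each member over the same libraries was *Smarcd2* for *Mmp2* (r 0.999), *Gramd1b* for *Mmp13* (0.998), *Nudt17* for *Mmp14* (0.998) and *Chfr* for *Mmp19* (0.995). For the inhibitors it was *Nom1* for *Timp1* (0.998), *Ddx39* for *Timp2* (0.991) and *Mafk* for *Timp3* (0.997). The number of other genes with an r above 0.95, of 10463 compared, was 455 for *Mmp2*, 55 for *Timp2* and 15 for *Timp1*.

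Of 18 further MMP and TIMP genes looked for, 4 were listed: *Mmp9*, *Mmp11*, *Mmp16* and *Mmp28*. *Mmp9*, the second gelatinase gene, which osteoclasts express strongly, had 2.18, 0.695 and 0.872 FPKM in the controls numbered 1, 2 and 3 and 2.58, 0.937 and 1.09 FPKM in the C3G replicates. Replicate 1 was the highest of both groups, and the treated library was higher in 3 of 3 pairs, by ratios of 1.19, 1.35 and 1.26. The groups overlapped and the difference was not called (log2 change 0.18, p = 0.605 by limma and 0.5 by exact permutation). The replicate number held 95.2% and the group 4.73% of the *Mmp9* sum of squares. With the number as a block the adjusted p of *Mmp9* was 0.794 with limma. The block leaves its log2 change at 0.18, below the fold needed, so *Mmp9* could not be called with it. Leaving out each library in turn gave *Mmp9* changes of -0.10 (without C3G replicate 1) to 0.45 (without control replicate 1). *Mmp11*, the stromelysin-3 gene, had 9.53, 7.05 and 7.74 FPKM in control and 8.93, 5.83 and 6.63 FPKM in the C3G libraries so numbered. It was lower with C3G in 3 of 3 pairs and was not called (log2 change -0.17, p = 0.429 by limma and 0.4 by exact permutation), and the *Mmp11* change was -0.063 without control replicate 1, -0.056 without C3G replicate 2 and -0.33 without C3G replicate 1. *Mmp16*, which encodes a membrane-bound relative of MMP14, had 1.31, 3.87 and 3.20 FPKM in control and 3.797, 3.82 and 3.56 FPKM in the C3G libraries so numbered. As in *Mmp13*, control replicate 1 was far below the other 5 libraries (log2 change 0.39, p = 0.220 by limma and 0.4 by exact permutation). Without that library the *Mmp16* change was 0.064. *Mmp28*, the epilysin gene, had 4.37, 3.22 and 2.82 FPKM in control and 3.28, 3.40 and 2.68 FPKM in C3G libraries (log2 change -0.11, p = 0.584 by limma and 0.7 by exact permutation), and turned to 0.033 without control replicate 1. Of these 4 genes *Mmp16* alone had a log2 change large enough for a call, and it was not called with the replicate block.

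Genes that act around the metalloproteinases were read from 4 lists, to be set beside all genes, of which 0.65% were called, 62.0% were higher and 38.0% lower in C3G cells, and the median log2 change was 0.057. Of 22 listed activators, inhibitors and partners (of 33 looked for) 0 were called, with 15 higher and 7 lower in C3G cells and a median log2 change of 0.078. The highest of them was *Bsg*, which encodes the MMP inducer basigin, with 588, 322 and 350.3 FPKM in control and 424, 324 and 331 FPKM in the C3G libraries so numbered. Control replicate 1 was the highest, and the log2 change was -0.18 (p = 0.536 by limma and 0.7 by exact permutation). Without that library the sign turned, to 0.088 for *Bsg*. *Pcolce*, which encodes an enhancer of procollagen C-proteinase, had 158 ± 37.8 FPKM (SD, n = 3) in control and 157 ± 26.6 FPKM (SD, n = 3) in C3G cells. *Thbs1*, for the matrix protein thrombospondin 1, had 135 ± 23.1 and 151 ± 28.0 FPKM (SD, n = 3 each), a log2 change of 0.16 (p = 0.493 by limma and 0.5 by exact permutation) that was 0.019 without control replicate 1 and 0.029 without C3G replicate 3.

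Of 18 listed ADAM, ADAMTS and related proteases (of 31) 0 were called, with 13 higher and 5 lower and a median log2 change of 0.042. The sheddase genes *Adam10* (30.01 ± 12.0 FPKM in control and 33.0 ± 8.27 FPKM in C3G cells, SD, n = 3 each) and *Adam9* (29.8 ± 6.54 and 30.3 ± 4.497 FPKM) led the list. Without control replicate 1 the sign of both log2 changes turned, from 0.19 to -0.17 in *Adam10* and from 0.036 to -0.15 in *Adam9*. The aggrecanase gene *Adamts1* had 19.8 ± 4.58 and 22.985 ± 5.36 FPKM (SD, n = 3 each), a log2 change of 0.20 (p = 0.410 by limma and 0.5 by exact permutation) that was 0.029 without C3G replicate 2 and 0.097 without control replicate 1. In these genes the groups overlapped.

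Of 27 listed matrix substrates (of 32) 0 were called, with 13 higher and 14 lower and a median of -0.0061. *Col1a1*, for the main chain of type I collagen, had 4432, 942 and 1221 FPKM in control and 1478, 923 and 1246 FPKM in the C3G libraries so numbered. *Col1a2*, for its partner chain, had 1995, 593 and 742 FPKM in control and 852, 593 and 735 FPKM in C3G libraries. Both stood far above the rest in control replicate 1, and replicates 2 and 3 were nearly level between the groups. *Fn1*, which encodes fibronectin, was even over the libraries, with 1481 ± 20.4 FPKM (SD, n = 3) in control and 1547 ± 119 FPKM (SD, n = 3) in C3G cells (log2 change 0.059, p = 0.773 by limma and 0.6 by exact permutation). The sign of the *Fn1* change turned under quantile normalization, to -0.061.

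Of 23 listed transcription factors linked to MMP genes (of 24) 0 were called, with 14 higher and 9 lower and a median of 0.041. *Atf4*, *Cebpb* and *Jund* had the highest levels. *Cebpb* had 174, 41.5 and 45.5 FPKM in control and 76.5, 41.2 and 40.1 FPKM in the C3G libraries so numbered, so that replicate 1 was the highest of both groups. *Jund*, an AP-1 subunit gene, had 86.9, 41.0 and 33.4 FPKM in control and 47.7, 41.5 and 29.0 FPKM in C3G libraries. Of the AP-1 genes, *Fosl1* had a log2 change of -0.36 (p = 0.201 by limma and 0.3 by exact permutation). It was called with the replicate number as a block (adjusted p = 0.794 with limma) and, at -0.60, without C3G replicate 2 (adjusted p = 0.9997 with limma). With the GC correction and block its change of -0.25 was below the fold needed for a call, and without control replicate 2 it was -0.22. *Fosl1* was named after its values were seen. *Egr1*, named in the same way, had the largest fold of this list, 0.78 on the log2 scale (p = 0.0692 by limma and 0.2 by exact permutation), from 1.62, 2.13 and 2.69 FPKM in control to 3.94, 8.201 and 2.41 FPKM in C3G libraries. *Egr1* was called with the GC correction and block (0.86, adjusted p = 0.785 with limma) and without C3G replicate 3 (1.11, adjusted p = 1 with limma), and without C3G replicate 2 it was 0.40.

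**Figure D5:**
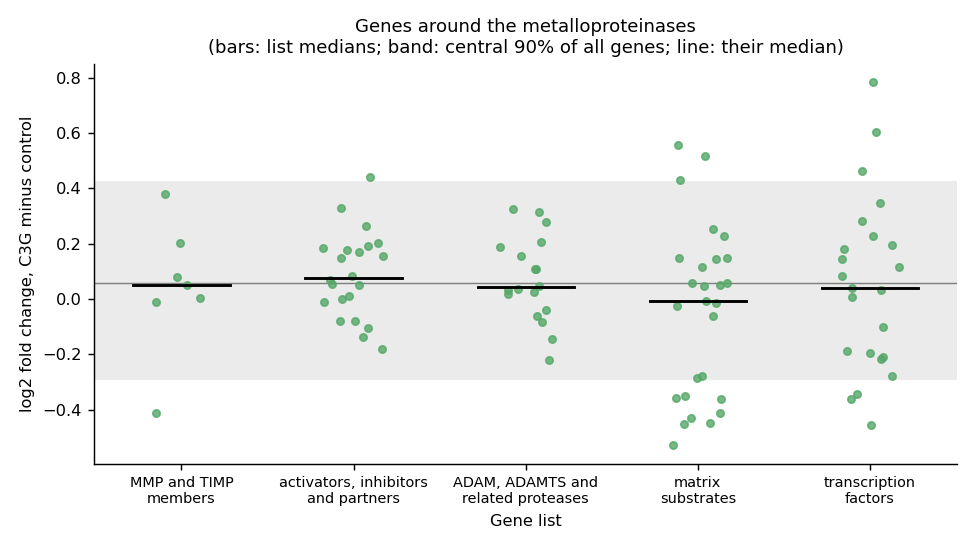
Log2 fold change, C3G minus control, of the 7 members and of the genes in the 4 lists (points), with list medians (bars), the central 90% of all genes (band, -0.29 to 0.42) and their median (line, 0.057). The list medians lie between -0.0061 and 0.078, close to the line.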

How the data were processed

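Total RNA of 6 cultures was sequenced from stranded libraries (KAPA kit). The authors deposited FPKM values per gene, calculated with Ballgown. The submitters' processing notes also list cutadapt, HISAT2 2.1.0, StringTie and STAR 2.5.2b without their roles. They name the human build hg19, whereas the identifiers are mouse Ensembl genes, 9812 of 11234 with the version of GENCODE M21 (GRCm38), whose positions were used. No counts were used, and low values showed no single-read steps, so depth is unknown and no counting error is given.

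Groups and replicate numbers came from the sample titles. After adding a pseudocount of 1 and taking log2, all genes entered limma 3.58.1 under R 4.3.3 (eBayes with trend), in a model of group alone without a filter. Calls used an unadjusted p under 0.05 and a fold of 1.2, with Benjamini-Hochberg adjustment over all 11234 genes. The study states Student's tests for 2 groups in general. The exact permutation tests (scipy 1.17.1) were two-sided on mean log2 values, and with 3 against 3 cannot go below 0.1. The fit was also run on simulated data with independent noise, without the replicate-number and GC patterns seen here. Its outcome was not used.

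The labels do not say that libraries of the same number are paired. Departures from the group means correlated at 0.653, 0.58 and 0.44 within numbers 1, 2 and 3 and at -0.640 to 0.307 between numbers. Departures within a group cancel out, so the values between numbers are in part fixed by those within numbers. The replicate block was an alternative, as were a pseudocount of 0.1, a filter on a mean of 1 FPKM, eBayes without trend, quantile normalization, median centring, a GC correction (spline with 5 degrees of freedom), that correction with the block, replicates 2 and 3 only, and each library left out, 15 in all. GC content is that of the longest transcript.

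The members, the 4 lists and the markers were chosen with earlier results of these data known. Named genes are the members, other listed MMPs, called genes and the 3 highest of each list, and for each member the gene with the highest Pearson's r. *Runx2*, *Fosl1*, *Fosb* and *Egr1* were named after their values were seen. Marker genes are named as examples. Protein sequences were not used here, and promoters are those of RefSeq (GRCm38.p6), found for 5 of the 7 members.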

Additional observations from a re-analysis of the deposited data

How the results depend on the processing

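Of the 7 members, 0 were called in 14 of 15 alternatives, and 0 to 1 with a library left out (*Timp1* without C3G replicate 2). With 3 libraries a group, limma's 95% intervals for the members had upper bounds of 1.11 to 1.97 and lower bounds of 0.507 to 0.858 in folds. *Mmp13* stayed higher and *Timp1* lower with C3G in all 15 alternatives. The signs of the others were not fixed. *Mmp2* turned to 0.032 with quantile normalization, 0.024 with the GC correction (same with the block), and 0.0022 with replicates 2 and 3 only. *Mmp14* turned to -0.062 with median centring, and *Mmp19* to -0.034 with quantile normalization, -0.014 with median centring and -0.0255 with the GC correction (same with the block). *Timp3* turned to -0.011 with replicates 2 and 3 only. With each library left out, log2 fold changes ran from -0.11 to 0.10 in *Mmp2*, -0.10 to 0.12 in *Mmp14*, -0.066 to 0.18 in *Mmp19*, -0.0088 to 0.16 in *Timp2*, -0.074 to 0.45 in *Timp3*, 0.12 to 0.52 in *Mmp13* and -0.62 to -0.19 in *Timp1*. The cause was not tested.

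Over all genes the count called was 73, and 169 with the replicate block, 135 with the GC correction, 246 with both, 191 with replicates 2 and 3 only and 40 to 144 with a library left out. The block called 0 members. It leaves the log2 changes as they were, so only *Timp1* and *Mmp13* had changes large enough for a call with it. Their p with the block was 0.082 and 0.175 by limma. In the 4 lists 1 gene was called with the block (*Fosl1*), 1 with the GC correction and block (*Egr1*), 1 with replicates 2 and 3 only (*Fosb*) and 0 to 1 with a library left out (*Fosb* without control replicate 1, *Fosl1* without C3G replicate 2, *Egr1* without C3G replicate 3). The difference of mean log2 ratios of TIMPs over MMPs, C3G minus control, was 0.024 and moved by less than the spread in the alternatives run for it (other MMP sums, the GC correction, replicates 2 and 3 only, libraries left out), between -0.18 and 0.19 with a library left out.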
